A study of Mus musculus with 6 samples.

Results

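A set of 9 genes of retinoic acid synthesis and response was measured by RNA-seq in ectopic lesions of a mouse model of endometriosis, a disease in which endometrial tissue grows outside the uterus. The genes were listed by name, with earlier results of these data known: Rbp4, Stra6, Aldh1a1, Aldh1a2, Aldh1a3, Crabp2, Rara, Rarb and Cyp26a1. All 9 were found by Ensembl identifier, without its version, among the 56884 genes of the count table, and all 9 passed the filter on low counts and were among the 18177 genes tested. Lesions came from uterine tissue of female donors, 8 weeks old, that were either floxed (Dnmt3a f/f, labelled WT, 3 lesions) or floxed with Cre recombinase at the progesterone receptor locus (Dnmt3a f/f:PR-Cre/+, labelled DNMT3A knock-out, KO, 3 lesions). Both groups thus carried the floxed allele, and in the KO donors only cells that express the progesterone receptor delete Dnmt3a. Donors were given estradiol. Recipients in both groups were wild-type C57BL/6J females, 8 weeks old, with an estradiol pellet, so vessels, immune cells and fat that grew in from the recipient kept Dnmt3a in both. The labels give 4 weeks as the time and fragments injected into the peritoneal cavity, and the methods give day 21 and a fragment sutured to the mesentery. RNA of each whole lesion gave 1 library.

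Retinoic acid is the hormone-like form of vitamin A. Retinol travels in blood bound to RBP4, enters cells through STRA6, is oxidised to retinaldehyde by retinol dehydrogenases and then, irreversibly, to retinoic acid by the ALDH1A enzymes. CRABP2 carries retinoic acid to the nuclear receptors RARA and RARB, which bind DNA together with RXR partners, and CYP26A1 breaks it down. Rarb, Cyp26a1, Crabp2 and Stra6 are themselves induced by retinoic acid in many cells, and retinoids are known to act on the differentiation of endometrial epithelium and stroma.

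The libraries held 45370342 to 57239184 counts. Dnmt3a lay between 43.9 and 52.7 CPM (the count of a gene relative to its library's size, scaled by TMM) in the WT and between 30.3 and 36.2 CPM in the KO lesions. Its log2 fold change was -0.57 (SE 0.14, edgeR quasi-likelihood adjusted p = 0.321). The count covers the whole gene and not the deleted part alone. Markers of endometrial tissue were present, with Krt8 at 287 to 618 CPM and Pgr at 135 to 255 CPM over the 6 lesions, while Foxa2, a marker of uterine glands, lay between 0 and 2.62 CPM. WT replicates 1 and 3 held skeletal muscle transcripts (23085 and 25877 CPM summed over 6 markers, against 2.81 to 14.1 CPM in the other lesions), WT replicate 2 held the most neutrophil transcripts (9449 CPM over 4 markers, against 9.73 to 455 CPM), KO replicate 3 the most adipocyte transcripts, and KO replicate 2 transcripts of oviduct and motile cilia, given with Cyp26a1. In whole lesions, fewer cells of a type and less RNA per cell cannot be told apart.

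The clearest difference among the 9 genes was in Crabp2, which was higher in every KO than in every WT lesion. Aldh1a3 was lower on average in KO lesions, and Cyp26a1 was high in 1 KO lesion and near 0 in the other 5. Rbp4, Stra6, Aldh1a1, Aldh1a2, Rara and Rarb had no difference past the threshold. That threshold is the study's own, a log2 fold change above 1 or below -1 together with an unadjusted p below 0.05. In edgeR's quasi-likelihood test 3 of the 9 genes reached it, where 8.96% of all tested genes did, 2 of them higher in KO (3.10% of all genes) and 1 lower (5.85% of all genes). The number was 1 when WT replicate 2, when WT replicate 3 or when KO replicate 2 was left out, with Crabp2 the gene in each case, and 5 without KO replicate 3, where Rarb and Rbp4 were added. An unadjusted p under 0.05 alone was reached by 3 of the 9, beside 14.7% of all genes. After Benjamini-Hochberg adjustment over all tested genes, 0 of the 9 passed at 0.05 in edgeR, by adjusted p (0.321 to 0.963), where 0.00550% of all genes did. Of the 9, 1 passed the adjustment in DESeq2's Wald test, which was Crabp2, where 1083 of all 19813 genes with an adjusted p in that test, or 5.47%, did. The median log2 fold change was -0.07 over the 9 genes and 0.01 over all genes tested.

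**Figure D1:**
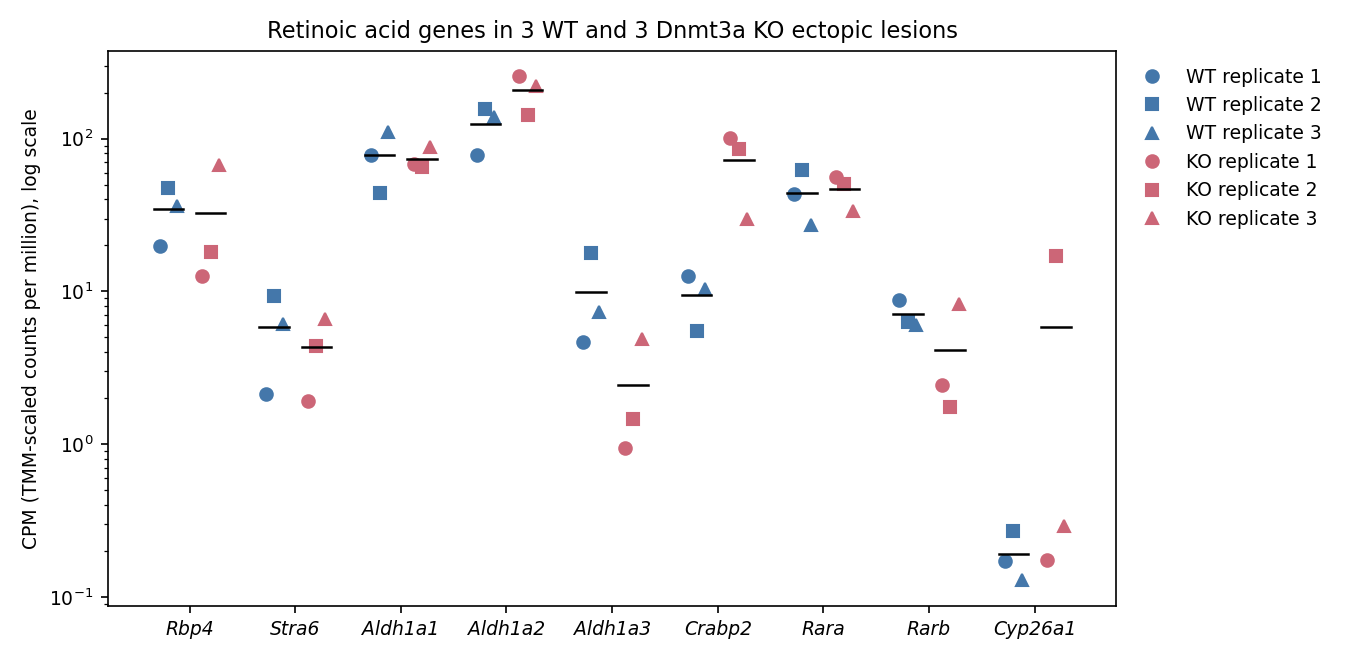
Level of each of the 9 genes in each lesion, in CPM on a log axis. Points are lesions (blue, WT, n = 3; red, KO, n = 3; the shape gives the replicate number) and black lines the group means. Crabp2 is the gene whose groups do not overlap, from 5.54 to 12.6 CPM in WT and from 29.9 to 100 CPM in KO, and KO replicate 2 alone carries Cyp26a1.

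Levels of different genes were compared per kilobase of exon. In WT lesions Aldh1a2 had the highest mean level of the 9 genes, at 55.1 ± 18.1 CPM per kb (SD, n = 3), followed by Rbp4 (25.7 ± 10.5), Aldh1a1 (15.7 ± 6.74), Rara (10.1 ± 4.02) and Crabp2 (7.2 ± 2.73). Each of these overlapped the next in its range over lesions. Within each WT lesion Aldh1a2 lay above Rbp4, at 34.7, 69.3 and 61.1 against 14.8, 35.7 and 26.8 CPM per kb in replicates 1, 2 and 3. The other neighbours among these genes changed order between WT lesions. All genes named so far lay above Aldh1a3, at 2.15 ± 1.5 CPM per kb, which overlapped Rarb (1.34 ± 0.292) and through it Stra6 (1 ± 0.616). Cyp26a1 stood below all others at 0.0957 ± 0.0367 CPM per kb. In KO lesions the order differed in Crabp2, which was second after Aldh1a2 at 54.5 ± 28.2 CPM per kb, in Cyp26a1, which was sixth through KO replicate 2 (2.94 ± 4.89), and in Aldh1a3, which was last at 0.527 ± 0.462 CPM per kb. There every neighbouring pair overlapped but Aldh1a1 and Rara.

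Supply of retinol was represented by Rbp4 and Stra6. Rbp4, the carrier of retinol in blood, is made in liver and in fat. Rbp4 (ENSMUSG00000024990.14, chr19:38116629-38125281, minus strand; positions of all 9 genes are those of GENCODE M21 on GRCm38) had 19.8, 47.9 and 36.0 CPM in WT against 12.5, 18.1 and 67.5 CPM in KO lesions, each in the order of replicates 1, 2 and 3, as in all such lists that follow. The groups overlapped, and KO replicate 3 and WT replicate 2 were the highest. The log2 fold change was -0.08 (SE 0.69, 95% interval -1.77 to 1.61), and without KO replicate 3 it was -1.17 with an unadjusted p of 0.0432, past the threshold. Those 2 lesions also had the highest summed level of 8 adipocyte markers, 6717 CPM in KO replicate 3 and 4534 CPM in WT replicate 2, against 888 to 1830 CPM in the other 4. Of these markers 6 of 8 had a positive log2 fold change and 0 an unadjusted p under 0.05, with a range of 1526 to 4534 CPM in WT against 888 to 6717 CPM in KO lesions. Markers of liver were at or near 0, with summed levels of 0.246 to 2.99 CPM over 5 genes. Per 1000 CPM of adipocyte markers, a ratio chosen after the values were seen, Rbp4 was 15.0 ± 7.43 CPM in WT against 12.2 ± 2.04 CPM in KO lesions (SD, n = 3, exact two-sided permutation p = 0.8).

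Stra6 encodes the membrane receptor that takes up retinol from RBP4. Stra6 (ENSMUSG00000032327.15, chr9:58063788-58153996, plus strand) had 2.13, 9.30 and 6.13 CPM in WT against 1.93, 4.37 and 6.63 CPM in KO lesions, and the groups overlapped over most of their range. Its log2 fold change was -0.44 (SE 0.65, 95% interval -2.04 to 1.16) and became 0.06 without WT replicate 2.

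The ALDH1A enzymes make retinoic acid from retinaldehyde. Aldh1a2 (ENSMUSG00000013584.6, chr9:71215789-71296243, plus strand), the main such enzyme of mesenchymal cells in the embryo, had 78.5, 157 and 138 CPM in WT against 257, 143 and 222 CPM in KO lesions. KO replicates 1 and 3 lay above every WT lesion and KO replicate 2 did not. The log2 fold change was 0.74 (SE 0.33, 95% interval -0.08 to 1.55, unadjusted p = 0.0695, edgeR quasi-likelihood adjusted p = 0.358), and it was positive in all 12 alternative fits, from 0.49 to 0.95. Mesothelial cells also use Aldh1a2, and 7 of 8 mesothelial markers had a negative log2 fold change, 0 of the 8 with an unadjusted p under 0.05. Their summed level was 624 to 806 CPM in WT against 459 to 857 CPM in KO lesions, of which Krt19, also a keratin of other epithelia, made up 287 to 566 CPM in WT against 263 to 545 CPM in KO lesions. The part of mesothelium in the Aldh1a2 values was not tested. Wt1, whose product activates Aldh1a2 in mesothelium, had 23.9, 26.8 and 12.7 CPM in WT against 16.5, 62.8 and 14.7 CPM in KO lesions, highest in KO replicate 2, where Aldh1a2 was lowest among the KO lesions.

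Aldh1a1 (ENSMUSG00000053279.9, chr19:20492715-20643465, plus strand), the cytosolic enzyme found in many adult epithelia, had 78.0, 44.2 and 111 CPM in WT against 68.2, 65.4 and 87.9 CPM in KO lesions. All KO values fell inside the WT range, and the log2 fold change was -0.07 (SE 0.34, 95% interval -0.90 to 0.76). Its sign turned in 4 of 12 alternative fits, which gave -0.35 to 0.25.

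Aldh1a3 (ENSMUSG00000015134.16, chr7:66390890-66427517, minus strand) encodes the third enzyme of this kind, usually found in epithelia. It had 4.70, 17.8 and 7.30 CPM in WT against 0.947, 1.47 and 4.88 CPM in KO lesions. WT replicate 2 was highest and KO replicates 1 and 2 lowest, and the groups overlapped in KO replicate 3, which lay just above WT replicate 1. The means were 9.93 ± 6.93 CPM in WT against 2.43 ± 2.13 CPM in KO lesions (SD, n = 3), with a log2 fold change of -2.03 (SE 0.79, 95% interval -3.97 to -0.09, unadjusted p = 0.0431, edgeR quasi-likelihood adjusted p = 0.333). The log2 fold change stayed negative in all 12 alternative fits, but it was past the threshold in 8 of them and in 2 of the 6 that left out 1 lesion. Without WT replicate 2 it was -1.30, without WT replicate 3 -2.22, without KO replicate 1 -1.64 and without KO replicate 2 -1.77, none past the threshold. Immune marker sums were also lower on average in KO lesions. All 5 macrophage markers had negative log2 fold changes, 0 with an unadjusted p under 0.05, and their sum was 711 to 1796 CPM in WT against 364 to 912 CPM in KO lesions. All 4 neutrophil markers were lower, 3 with an unadjusted p under 0.05, and their sum was 193 to 9449 CPM in WT against 9.73 to 144 CPM in KO lesions. All 5 dendritic cell markers were lower too, 2 with an unadjusted p under 0.05. The 8 endometrial epithelial markers went the other way, each with a positive log2 fold change and 0 with an unadjusted p under 0.05. Per 1000 CPM of macrophage markers, a ratio chosen after the values were seen, Aldh1a3 was 8.87 ± 1.96 CPM in WT against 3.79 ± 1.69 CPM in KO lesions (SD, n = 3), lower in every KO lesion (exact two-sided permutation p = 0.1). The part of neutrophils, dendritic cells and epithelium was not tested.

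The makeup of the enzyme pool was compared as each gene's share of the summed CPM per kb of the 3 genes. Aldh1a2 made up 67.3%, 84.4% and 71.8% of it in WT and 89.0%, 82.4% and 83.9% in KO lesions. On this scale Aldh1a2 held most of the pool in every lesion. Without scaling by length it did so in all but WT replicate 1, where Aldh1a2 was 48.7% and Aldh1a1 48.4% of the sum. The means of the Aldh1a2 share per kb, 74.5% ± 8.86 in WT and 85.1% ± 3.48 in KO (SD, n = 3), did not differ beyond the spread between lesions (exact two-sided permutation p = 0.3). The share of Aldh1a3 was 1.98%, 4.69% and 1.86% in WT and 0.161%, 0.414% and 0.903% in KO lesions. It was lower in every KO than in every WT lesion, which gives an exact two-sided permutation p of 0.1, the smallest that 3 lesions against 3 allow. The level of Aldh1a3 itself overlapped between the groups, with 1.06 CPM per kb in KO replicate 3 and 1.02 CPM per kb in WT replicate 1, and the share of KO replicate 3 was the lower of these because its pool was larger. The pool itself was 51.5, 82.2 and 85.1 CPM per kb in WT and 128, 76.9 and 117 CPM per kb in KO lesions, and the groups overlapped (exact two-sided permutation p = 0.3).

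**Figure D2:**
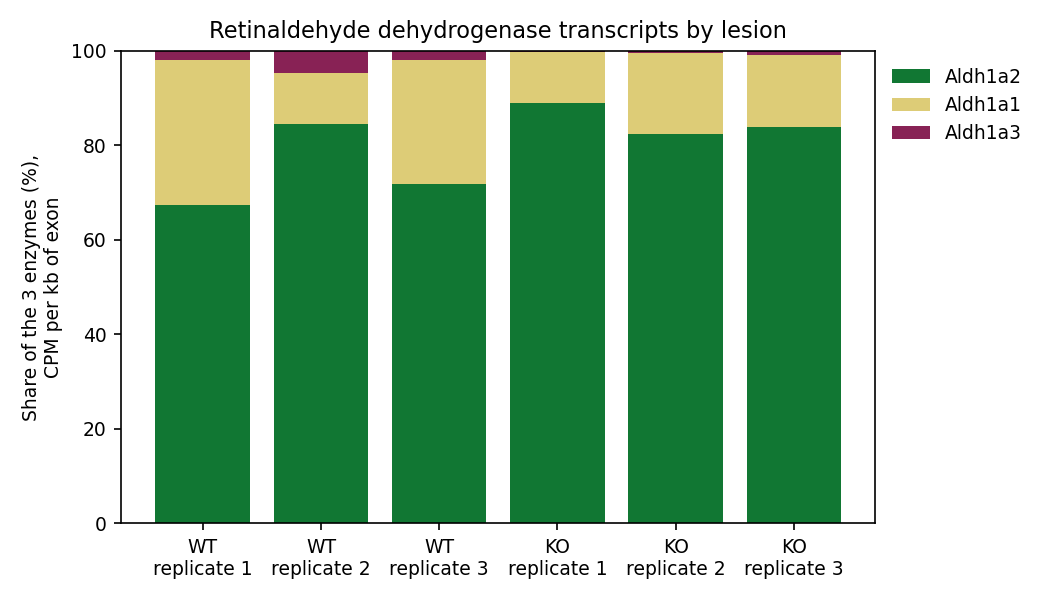
Share of Aldh1a2, Aldh1a1 and Aldh1a3 in their sum in each lesion, in percent of CPM per kb of exon, as stacked bars. Aldh1a2 fills 67.3% to 89.0% of each bar, and the Aldh1a3 segment is 1.86% to 4.69% in WT and 0.161% to 0.903% in KO lesions.

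Crabp2 (ENSMUSG00000004885.6, chr3:87948666-87953376, plus strand) encodes the small carrier that delivers retinoic acid to its receptors. It had 12.6, 5.54 and 10.4 CPM in WT against 100, 85.9 and 29.9 CPM in KO lesions. Every KO lesion lay above every WT lesion, and KO replicate 3 was the lowest of the KO lesions. It was the only one of the 9 genes whose groups did not overlap, where 19.4% of all tested genes did not overlap in either direction and, by direction, 10.7% had every KO lesion above and 8.74% every KO lesion below the WT lesions. The means were 9.52 ± 3.62 CPM in WT against 72.1 ± 37.2 CPM in KO lesions (SD, n = 3), a ratio of 7.57, and the exact two-sided permutation p was 0.1, the smallest possible. The log2 fold change was 2.92 (SE 0.55, 95% interval 1.58 to 4.26, unadjusted p = 0.00178, edgeR quasi-likelihood adjusted p = 0.321), and its unadjusted p ranked 86 among the 18177 tested genes. It stayed past the threshold in all 12 alternative fits, with log2 fold changes of 2.60 to 3.29, and the adjusted p was 1.65e-05 in DESeq2's Wald test, reached 0.668 in the fit lacking KO replicate 2, and was below 0.05 in 1 of the 12.

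Epithelial markers were also higher in 2 of the KO lesions. All 8 endometrial epithelial markers had a positive log2 fold change, 0 of them with an unadjusted p under 0.05, and their sum was 20403, 10957 and 17304 CPM in WT against 35947, 27721 and 16890 CPM in KO lesions. Of these markers only Foxa2 was at 0 in a lesion, KO replicate 3. Of the stromal markers 6 of 8, and of the smooth muscle markers 4 of 5, had a positive log2 fold change. Those with an unadjusted p under 0.05 were Hoxa11 (log2 fold change 1.05), Hand2 (1.02) and Esr1 (1.13) of the stromal list, and Myh11 (0.96) and Cnn1 (1.26) of the smooth muscle list, each higher in every KO than in every WT lesion. The smooth muscle sum was 991 to 4734 CPM in WT against 2012 to 3498 CPM in KO lesions. It included Des, the marker of that list with a negative log2 fold change (-2.16). Des had 2675 and 1357 CPM in WT replicates 1 and 3, the lesions with skeletal muscle transcripts, and 106 to 371 CPM elsewhere. Per 1000 CPM of the epithelial markers, a ratio chosen after the values were seen, Crabp2 was 0.617, 0.505 and 0.602 CPM in WT against 2.79, 3.10 and 1.77 CPM in KO lesions. The ratio of means on this scale was 4.44, and 5.16 when Ltf, the most abundant marker, was left out of the sum, beside 7.57 for Crabp2 itself. The part of epithelium, stroma and smooth muscle in the Crabp2 difference was not tested.

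**Figure D3:**
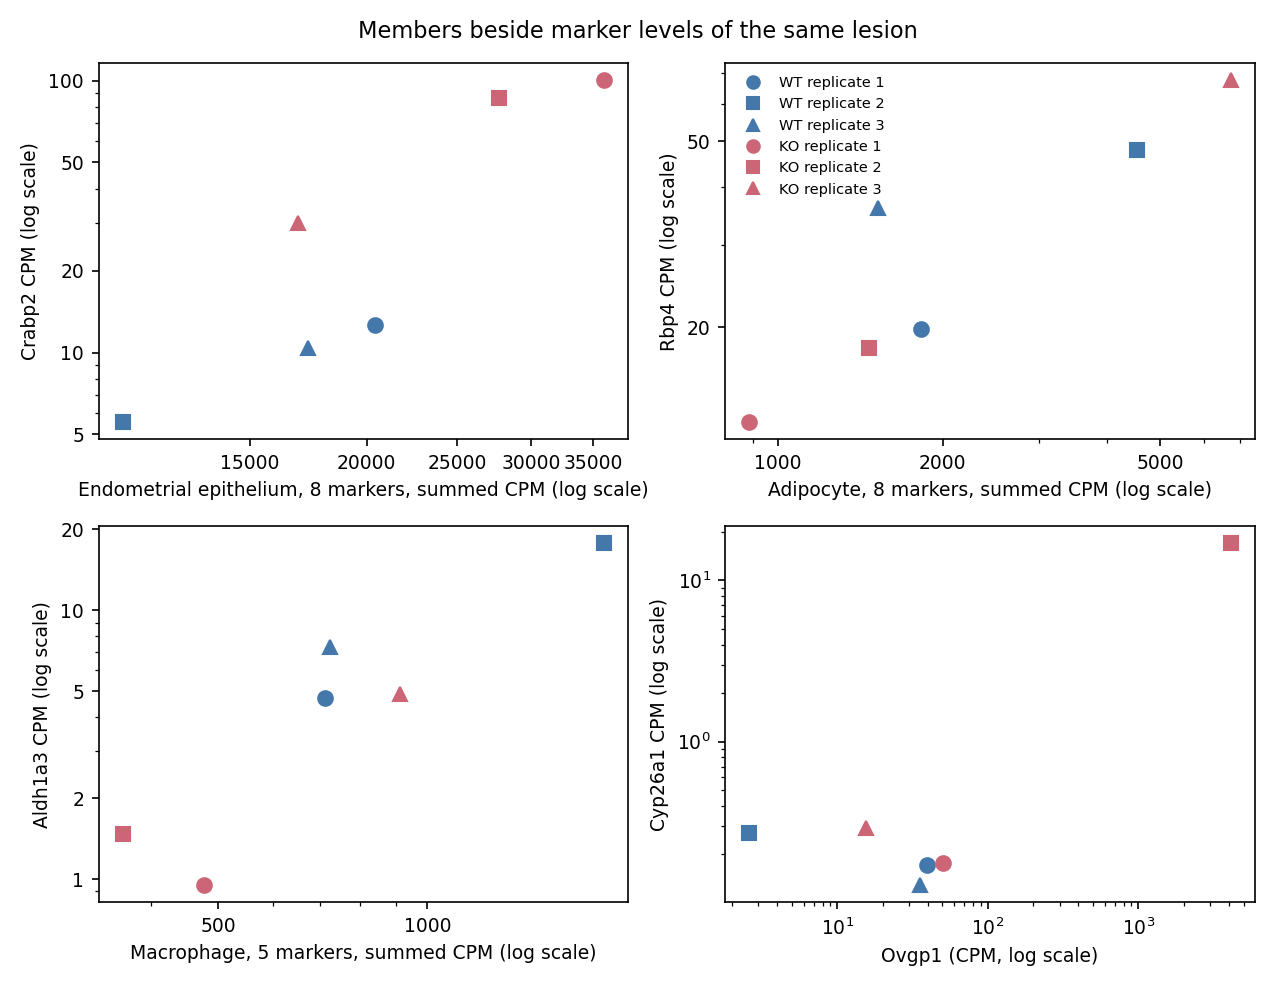
Levels of Crabp2, Rbp4, Aldh1a3 and Cyp26a1 in CPM against marker levels of the same lesion, with both axes on a log scale (blue, WT; red, KO; n = 6 lesions in each panel). Crabp2 in KO replicate 3 lies above that of WT replicate 3. Epithelial marker sums of these lesions are 16890 and 17304 CPM, and 1217 and 1779 CPM without Ltf. Rbp4 is highest in the 2 lesions with 4534 and 6717 CPM of adipocyte markers. Aldh1a3 is highest in the lesion with 1796 CPM of macrophage markers, and Cyp26a1 is high in the lesion with 4104 CPM of Ovgp1.

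Among the receptors, Rara (ENSMUSG00000037992.17, chr11:98927818-98974942, plus strand), the widely used form, had 43.2, 62.2 and 27.1 CPM in WT against 55.9, 50.6 and 33.5 CPM in KO lesions. All KO values lay inside the WT range, with a log2 fold change of 0.08 (SE 0.35, 95% interval -0.77 to 0.93).

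Rarb (ENSMUSG00000017491.10, chr14:16430839-16819156, minus strand), the receptor that retinoic acid itself induces, had 8.84, 6.30 and 6.07 CPM in WT against 2.46, 1.75 and 8.25 CPM in KO lesions. KO replicates 1 and 2 lay below every WT lesion, and KO replicate 3 lay within the WT range. The log2 fold change was -0.77 (SE 0.61, 95% interval -2.27 to 0.73, unadjusted p = 0.257), and without KO replicate 3 it was -1.75 with an unadjusted p of 0.00299 and an adjusted p of 0.120 from edgeR's quasi-likelihood test. The stromal marker Pdgfra was low in the same KO lesions, with 142 and 104 CPM in KO replicates 1 and 2, 321 CPM in KO replicate 3 and 298 to 408 CPM in WT lesions. Over the whole list of 8 stromal markers, 2 had a negative log2 fold change, 0 of them with an unadjusted p under 0.05, and 6 a positive one, 3 of them (Hoxa11, Hand2 and Esr1) with an unadjusted p under 0.05. The sum of the list was 3001 to 3236 CPM in WT against 2469 to 3646 CPM in KO lesions. The 4 endothelial markers had negative log2 fold changes, 0 with an unadjusted p under 0.05, and sums of 373 to 441 CPM in WT against 240, 174 and 474 CPM in KO replicates 1, 2 and 3. Per 1000 CPM of endothelial markers, a ratio chosen after the values were seen, Rarb was 18.0 ± 4.80 CPM in WT against 12.6 ± 4.20 CPM in KO lesions (SD, n = 3), and the groups overlapped (exact two-sided permutation p = 0.3). The part of stromal cells was not tested. Rarb shares 1793 exonic bases with Top2b on the opposite strand. The libraries were stranded, and the strand setting of the counting is not given in the sources used here, so reads of the genes in these bases cannot be told apart. Top2b, a DNA topoisomerase gene, had 135 to 140 CPM in WT against 148 to 166 CPM in KO lesions.

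Cyp26a1 (ENSMUSG00000024987.7, chr19:37697798-37701536, plus strand) encodes the enzyme that clears retinoic acid and is among the most sensitive of its target genes. Its raw counts were 8, 12 and 6 in WT against 10, 858 and 14 in KO lesions, or 0.171, 0.270 and 0.128 CPM in WT against 0.175, 17.0 and 0.292 CPM in KO lesions. Raw counts here are as deposited, and most low counts were even in every library, so they may exceed the number of sequenced fragments. KO replicate 2 carried nearly all of it, and the other 5 lesions lay together near 0. The log2 fold change of 4.93 (SE 1.92, 95% interval 0.22 to 9.63, unadjusted p = 0.0427, edgeR quasi-likelihood adjusted p = 0.333) rested on that lesion and was 0.30 (unadjusted p = 0.635) without it. It was also not past the threshold without any 1 of the WT lesions (4.69 to 5.26). KO replicate 2 was also the lesion with transcripts of oviduct secretory and ciliated cells, from 5 markers chosen after the values were seen. Ovgp1, the oviduct glycoprotein, had 39.3, 2.61 and 35.6 CPM in WT against 50.5, 4104 and 15.6 CPM in KO lesions. Foxj1, the regulator of motile cilia, had 0.180 to 2.56 CPM in WT against 10.5, 66.8 and 10.5 CPM in KO lesions, and Dnah5, a dynein of cilia, had 64.6 CPM in KO replicate 2 and 0 to 0.458 CPM elsewhere. All 5 markers were highest in KO replicate 2, and their part in the Cyp26a1 value was not tested.

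The start-site regions of Rarb and Cyp26a1 are shown because each holds the kind of DNA element that retinoic acid receptors bind, a direct repeat of a short half-site, while the levels of the 2 genes did not go together in these lesions. RefSeq windows of 300 bases (250 before and 50 after the start, GRCm38.p6) were at hand for 7 of the 9 genes, in 15 windows, and not for Aldh1a3 and Crabp2. Both strands were searched for pairs of the half-site AGGTCA, its variants AGTTCA or GGGTCA, and the variant GGTTCA, in any combination, in the same direction and spaced by 1, 2 or 5 bases of any letter (N). A pair spaced by 5 bases was found in 1 window each of Rarb and Cyp26a1 and in 32 of all 32851 windows, or 0.0974%. Pairs spaced by 1 or 2 bases were in 0.222% and 0.268% of all windows and in none of the 15. Capitals mark the 17 bases of the repeat, which ends 37 bases before the start of Rarb (chr14:16575427-16575726, minus strand) and 16 bases before that of Cyp26a1 (chr19:37697558-37697857, plus strand). In Cyp26a1 the repeat reads on the opposite strand.
Rarb: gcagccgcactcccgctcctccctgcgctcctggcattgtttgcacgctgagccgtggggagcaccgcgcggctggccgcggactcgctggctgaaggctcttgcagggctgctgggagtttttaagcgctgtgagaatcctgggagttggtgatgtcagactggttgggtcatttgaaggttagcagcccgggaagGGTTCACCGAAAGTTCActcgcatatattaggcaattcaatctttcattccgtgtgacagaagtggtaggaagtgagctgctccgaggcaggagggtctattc
Cyp26a1: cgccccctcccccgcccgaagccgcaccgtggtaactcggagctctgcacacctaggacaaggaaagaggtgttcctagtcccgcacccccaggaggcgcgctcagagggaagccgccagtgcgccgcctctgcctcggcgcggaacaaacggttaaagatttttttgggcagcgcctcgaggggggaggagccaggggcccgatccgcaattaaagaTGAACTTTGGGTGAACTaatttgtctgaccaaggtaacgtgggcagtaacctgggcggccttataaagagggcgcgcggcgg
In the lesion with the most Cyp26a1, KO replicate 2, Rarb had its lowest level of the 6, at 1.75 CPM, and in KO replicate 3, where Rarb was at 8.25 CPM, Cyp26a1 was at 0.292 CPM. A match of letters is a description of these windows and was not measured as binding.

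**Figure D4:**
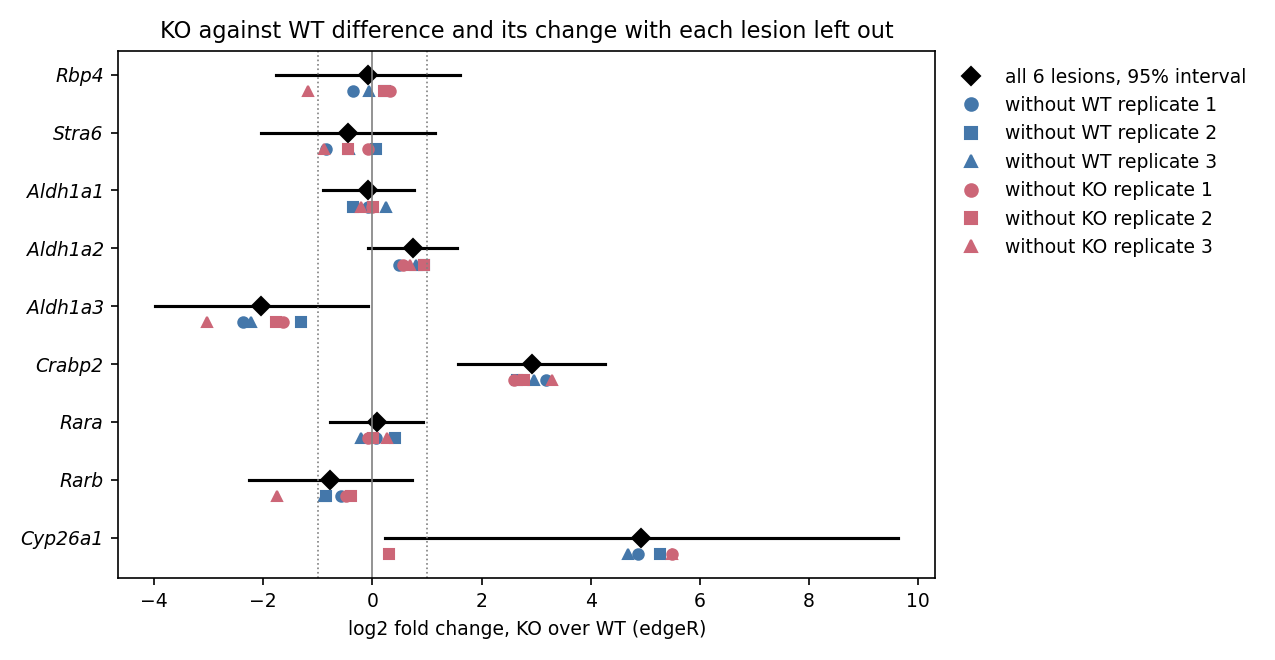
Log2 fold change of KO over WT for each of the 9 genes (black diamonds, with 95% intervals from edgeR's quasi-likelihood fit of all 6 lesions) and the same value with each lesion left out in turn (coloured points beneath). Dotted lines mark 1 and -1. Crabp2 stays between 2.60 and 3.29, while Cyp26a1 moves from 4.93 to 0.30 without KO replicate 2 and Rarb from -0.77 to -1.75 without KO replicate 3.

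The wider retinoid pathway was described with 44 other genes. Of these, 38 were tested, and Ttr, Aldh8a1, Cyp26c1, Hoxb1, Cdx1 and Stra8 were too low. Past the study's threshold were 6 genes, 4 higher and 2 lower in KO lesions, beside the 8.96% of all genes given above. At an unadjusted p under 0.05 alone there were 9, beside 14.7% of all genes. After adjustment 0 passed in edgeR's quasi-likelihood test (adjusted p of 0.321 to 0.990), and 6 did with DESeq2's Wald test, where 5.47% of all genes with an adjusted p did. The median log2 fold change was 0.21 over the 38 genes.

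Among the carriers, Crabp1, the close relative of Crabp2, had 0.811, 0.225 and 0.598 CPM in WT against 4.49, 2.70 and 1.83 CPM in KO lesions. Every KO lesion lay above every WT lesion, as for Crabp2, and the log2 fold change was 2.46 (SE 0.59, edgeR quasi-likelihood adjusted p = 0.321) and past the threshold in all 12 alternative fits. Fabp5, which can bring retinoic acid to another class of nuclear receptor, was at 82.5 to 198 CPM in WT against 210 to 244 CPM in KO lesions, for a log2 fold change of 0.78 (SE 0.34, unadjusted p = 0.0591).

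Of the genes of retinol transport and storage, 1 of 6 tested was past the threshold. This was Rbp2, a cellular retinol carrier best known from the intestine, with 0.598, 0.0450 and 0.171 CPM in WT against 2.60, 3.02 and 0.583 CPM in KO lesions. Its groups overlapped through KO replicate 3 (log2 fold change 2.91, SE 1.02), and it was not past the threshold without WT replicate 2, WT replicate 3, KO replicate 1 or KO replicate 2. Intestinal epithelial markers were low throughout, with summed levels of 2.73 to 3.20 CPM in WT against 0.792 to 6.24 CPM in KO lesions, Fabp2 at 0 in 5 of the 6 lesions, and Cdx1 and Cdx2 each at 0 in 5. Lrat, which stores retinol as esters, had 69.6, 4.10 and 9.53 CPM in WT against 162, 171 and 31.9 CPM in KO lesions, for a log2 fold change of 2.13 (SE 1.18, 95% interval -0.75 to 5.01).

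Among the retinol and retinaldehyde oxidoreductases, 3 of 15 tested genes were past the threshold. Rdh16 had 1.54, 0.0900 and 0.128 CPM in WT against 9.65, 10.3 and 2.65 CPM in KO lesions, and Rdh1 had 0.512, 0.135 and 0.598 CPM in WT against 4.09, 3.85 and 0.729 CPM in KO lesions. Both were higher in every KO than in every WT lesion, with log2 fold changes of 3.68 (SE 1.23) and 2.79 (SE 0.84). They belong to a family of closely related genes, between which reads can be split in ways the counts do not show. Rdh16 was not past the threshold without WT replicate 3, KO replicate 1 or KO replicate 2. Rdh12 was lower, with 3.48, 65.3 and 1.71 CPM in WT against 1.86, 1.47 and 2.42 CPM in KO lesions, and its log2 fold change of -3.61 rested on WT replicate 2 and was -0.44 without it. Without any 1 of the KO lesions it was not past the threshold either. Adh1, an alcohol dehydrogenase that oxidises retinol, had 123, 115 and 118 CPM in WT against 194, 185 and 299 CPM in KO lesions. The groups did not overlap, and the log2 fold change of 0.93 (SE 0.22, unadjusted p = 0.00497, edgeR quasi-likelihood adjusted p = 0.321) was under the limit of 1, which it passed without KO replicate 1 or KO replicate 2 (1.03 and 1.06). Rdh10, the main retinol dehydrogenase of the embryo, had 224 to 385 CPM in WT against 247 to 471 CPM in KO lesions (log2 fold change 0.37, 95% interval -0.41 to 1.16), and Dhrs3, which turns retinaldehyde back to retinol and is induced by retinoic acid, had 51.1 to 88.1 CPM in WT against 47.3 to 88.1 CPM in KO lesions (0.01, 95% interval -0.76 to 0.78).

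Of the 4 other receptors tested, Rxrg was past the threshold and lower, with 7.39, 2.39 and 11.2 CPM in WT against 0.175, 0.437 and 1.83 CPM in KO lesions (log2 fold change -3.10, SE 1.01). It was highest in WT replicates 1 and 3, the lesions with skeletal muscle transcripts. All 5 tested muscle markers were lower with an unadjusted p under 0.05, their sum was 2.81 to 25877 CPM in WT against 6.67 to 14.1 CPM in KO lesions, and Myh4 was at 0 in every KO lesion. The part of muscle in the Rxrg value was not tested, and without WT replicate 3 or KO replicate 2 Rxrg was not past the threshold. Rarg, Rxra and Rxrb had log2 fold changes of 0.15, -0.37 and -0.05.

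Of 7 tested genes known to respond to retinoic acid, 0 were past the threshold and 2 had an unadjusted p under 0.05. These were Meis2, a homeobox gene, with 27.5 to 36.0 CPM in WT against 40.1 to 49.1 CPM in KO lesions (log2 fold change 0.43, SE 0.16), and Nrip1, a nuclear receptor corepressor gene, with 93.8 to 124 CPM in WT against 130 to 182 CPM in KO lesions (0.47, SE 0.19). Neither had an adjusted p under 0.05. Tgm2, the most abundant of them, had 2800 to 3273 CPM in WT against 2338 to 4154 CPM in KO lesions (0.07, 95% interval -0.62 to 0.76).

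**Figure D5:**
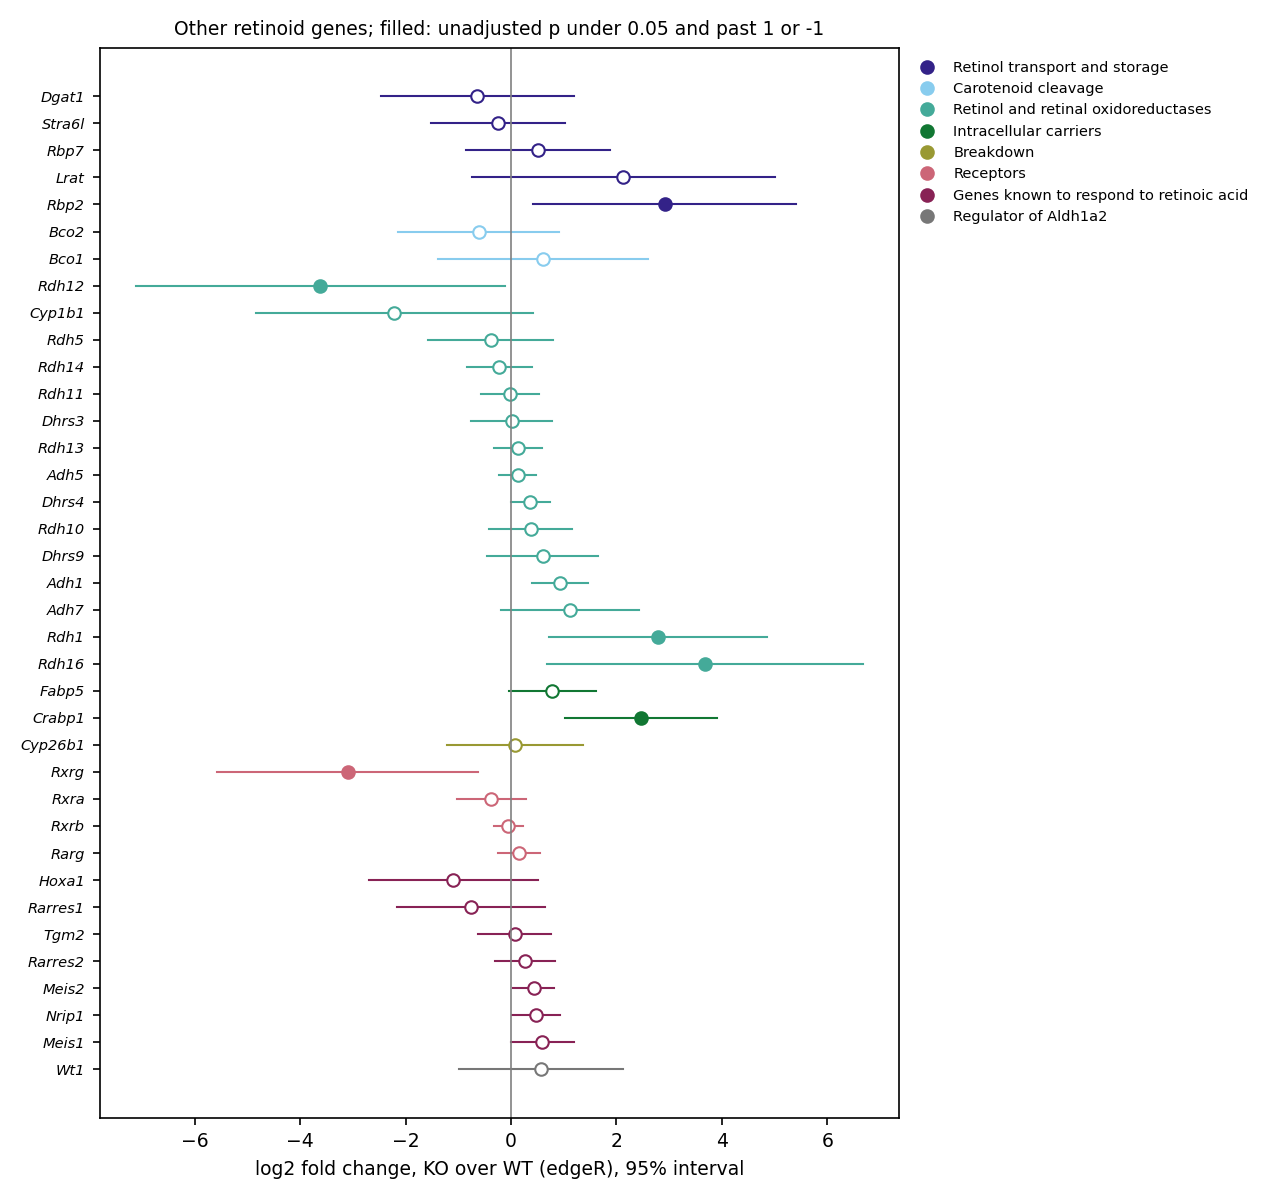
Log2 fold change of KO over WT for genes of the wider retinoid list, with 95% intervals from edgeR's fit of 3 WT and 3 KO lesions, grouped by role in colour. Filled points are the 6 genes past the study's threshold, of which Rdh16, Rbp2, Rdh1 and Crabp1 are higher and Rdh12 and Rxrg lower in KO lesions.

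For the 3 of the 9 genes with the smallest p-values, the genes with the most similar pattern over the 6 lesions were looked up among 15045 genes by Pearson's correlation of log2 CPM, as a description over 6 libraries that differ in genotype and tissue makeup. Nearest to Crabp2 was Epha4 (r = 0.998), an ephrin receptor gene, with 17.5, 12.7 and 16.2 CPM in WT against 42.2, 41.0 and 24.0 CPM in KO lesions, followed by Zfp110 and Tmem167b (r of 0.995 and 0.994). Nearest to Cyp26a1 were Ift22, Dlec1 and Fbxo10 (r of 0.996, 0.996 and 0.995), all with their highest level in KO replicate 2, where Dlec1 had 13.1 CPM against 0.384 to 0.875 CPM elsewhere. Nearest to Aldh1a3 were Rap2c, Eps15 and Col4a3bp (r of 0.991, 0.990 and 0.990), whose levels were highest in WT replicate 2 and lowest in KO replicate 1.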

How the data were processed

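RNA-seq of whole ectopic lesions (stranded mRNA libraries) was analysed from 1 table of raw read counts per gene deposited by the authors, with 3 WT and 3 KO lesions grouped by GEO's labels. The submitters' processing notes name Trimmomatic, featureCounts, DESeq2 and GRCm39, while the paper's methods name GRCm38. The aligner and annotation release are not given in the sources used here. Of 56884 identifiers, 51948 were found without version in GENCODE M21, from which symbols, exonic lengths and positions were taken. In each library 83.5% to 85.8% of genes with 5 to 200 counts had an even count, as would follow if both reads of a pair were counted, so printed counts and count minimums may stand for fewer fragments. Every per-sample column was used. The methods count each lesion as a separate sample of its group, and p-values measure the spread between these samples.

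Genes passing edgeR's filterByExpr were fitted with edgeR 4.0.16 (R 4.3.3, TMM factors 0.962 to 1.05). The quasi-likelihood test compared KO with WT with no covariate, and Benjamini-Hochberg adjustment was over all 18177 tested genes. A separate fit of the same kind was tried beforehand on simulated counts. The threshold was an unadjusted p under 0.05 with a log2 fold change beyond 1 in size. Intervals of log2 fold changes are 95% intervals. Single values were compared by exact two-sided permutation tests, whose smallest p with 3 lesions against 3 is 0.1. Alternatives were other scalings, filters, DESeq2 1.42.0, a replicate block and leaving out each lesion. Named genes were the 9 listed genes, genes of the wider list past the threshold or with an unadjusted p under 0.05, the 3 most similar genes (log2 CPM with a prior count of 2, mean of at least 1 CPM) for each of 3 listed genes, and markers beside a result. Others of the wider list (Lrat, Fabp5, Rdh10, Dhrs3, Tgm2, Rarg, Rxra, Rxrb and Wt1) were named after their values were seen, and 1 gene of that list entered the counts but is not reported here. The listed genes and all gene lists were chosen with earlier results of these data known. Promoter windows were from RefSeq (GRCm38.p6).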

Additional observations from a re-analysis of the deposited data

How the results depend on the processing

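Of the 9 genes, 3 were past the threshold with all lesions and TMM scaling, and 1 to 5 when each lesion was left out in turn. Among the 38 tested genes of the wider list the number was 6, with 3 under a minimum of 10 counts in every library, where fewer genes were tested, and 3 to 9 with a lesion left out. Over all genes it was 1628, with 2444 without the filter, 2681 with DESeq2 and 938 to 2671 with a lesion left out. Upper quartile scaling, under which the median over all genes was 0.11 in place of 0.014, gave 716 higher and 907 lower genes in place of 564 and 1064, and turned Aldh1a1 to 0.020 and Rbp4 to 0.014. With a lesion left out, log2 fold changes ran from -0.35 to 0.25 for Aldh1a1, -0.20 to 0.41 for Rara, -0.89 to 0.060 for Stra6 and -1.17 to 0.32 for Rbp4. The Aldh1a3 share of the enzyme pool differed by -2.35 percentage points, by -3.78 without scaling by length and by -2.84 to -1.42 with a lesion left out. With the replicate number as a block, 2 of the 9 genes, 5 of the wider list and 945 of all genes were past the threshold, Cyp26a1 was 2.34 and Aldh1a1 0.010. Deviations from the group means correlated at 0.03, -0.15 and -0.20 between samples of the same number. With 3 lesions per group that differ in tissue makeup, these values cannot show whether the numbers pair the lesions. Where a value moved, the cause was not tested, save where fewer samples or genes entered. DESeq2 gave no p for Cyp26a1.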

Other observations

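Over the 6 lesions, and as a description without a test, Crabp2 and Aldh1a3 ran in opposite directions (Pearson's r = -0.96 of log2 CPM), as did Aldh1a1 and Rara (-0.93), while Stra6 and Rbp4 ran together (0.86). These libraries share the group difference and the differences in tissue makeup given above. Aldh1a1 was lowest and Rara highest in WT replicate 2, at 44.2 and 62.2 CPM, and Aldh1a1 was highest and Rara lowest in WT replicate 3, at 111 and 27.1 CPM.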
